A study of Mus musculus with 10 samples.

Results

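The 10 genes described here are the G1 cyclins *Ccnd1*, *Ccnd2*, *Ccnd3*, *Ccne1* and *Ccne2* and the cyclin-dependent kinase (CDK) inhibitors *Cdkn1a*, *Cdkn1b*, *Cdkn1c*, *Cdkn2a* and *Cdkn2b*. They were taken by gene symbol from the 45706 genes counted in the mouse uterus at gestation day (GD) 3.5. All 10 were among the 25146 genes that averaged 1 or more counts per uterus, which were the genes tested. Uterine RNA came from 5 control *Arid1a f/f* mice, in which both alleles of the chromatin remodelling gene *Arid1a* carry loxP sites, and from 5 *Ltf iCre/+ Arid1a f/f* mice, which carry the same floxed alleles together with iCre recombinase expressed from the lactoferrin (*Ltf*) locus. Uteri of the latter are called mutant uteri in the text. The study's methods describe adult females of 12 to 15 weeks on a mixed background of 129S6/SvEvTac, 129S1/SvImJ, 129P2/OlaHsd and C57BL/6, and mice of both genotypes had mated and were otherwise untreated. The *Ltf* driver is active in the endometrial epithelium and, according to the study's discussion, may also be active in neutrophils and other myeloid cells. The libraries were made from whole uterine tissue, a part of each uterus, so stroma, muscle, vessels and blood cells contributed to every value. In such bulk samples fewer cells of a type and less RNA per cell cannot be told apart.

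Progression through G1 depends on D cyclins, which activate Cdk4 and Cdk6, and on E cyclins, which activate Cdk2. The active kinases phosphorylate the retinoblastoma protein and its relatives and so release E2F transcription factors, which switch on genes for DNA replication. Cip/Kip inhibitors (*Cdkn1a*, *Cdkn1b* and *Cdkn1c*, encoding p21, p27 and p57) bind cyclin-CDK complexes, and INK4 inhibitors (*Cdkn2a* and *Cdkn2b*, encoding p16 and p15) bind Cdk4 and Cdk6. In the mouse uterus before implantation, progesterone normally halts division of the luminal epithelium while the stroma divides, and D cyclins later take part in decidualization. Much of the control of these proteins, p27 and cyclin E in particular, lies in their degradation, which RNA levels do not show.

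Of the 10 genes, 2 rose in mutant uteri at an adjusted p under 0.05 and no member fell. These were *Ccne1*, at 1.86 times the control level, and *Cdkn2b*, at 4.18 times. *Cdkn1a* stood 1.86 times as high as in controls and just missed the threshold (adjusted p = 0.0538). Among all tested genes, 9.7% were called in either direction, 5.19% higher and 4.51% lower, a share at which about 1 of 10 genes would be called. The median log2 fold change of the members was 0.39, against 0.03 over all tested genes. Values below are CPM, the counts of a gene relative to its library's total after TMM scaling in edgeR, and are listed for replicates 1 to 5 of each genotype. Fold changes are mutant over control, SE is the standard error of the log2 fold change, and each adjusted p is a Benjamini-Hochberg value over all tested genes from the quasi-likelihood test in edgeR.

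**Figure D1:**
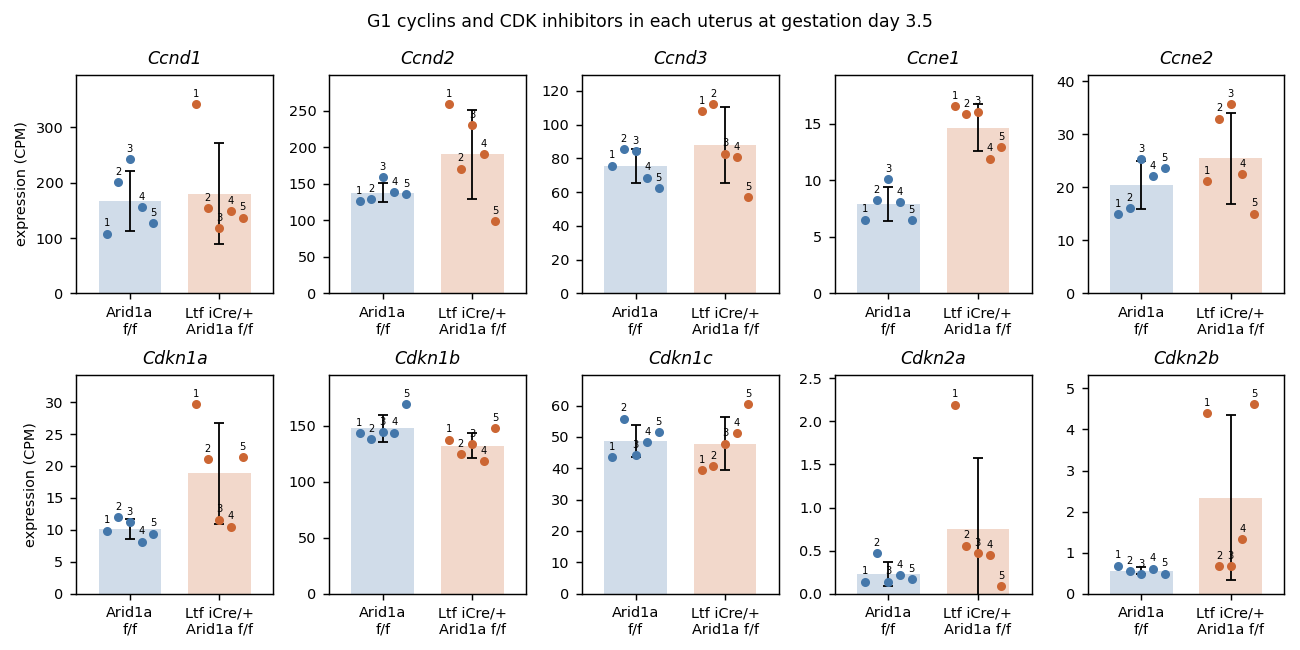
Expression of each member (vertical axis, CPM, starting at 0) in the 5 *Arid1a f/f* and 5 *Ltf iCre/+ Arid1a f/f* uteri, with points numbered by replicate, bars at the mean and error bars of 1 SD, which are cut at 0 for *Cdkn2a*. *Ccne1* separates the genotypes in all 10 uteri, and *Cdkn2b* is above 4 CPM only in replicates 1 and 5 of *Ltf iCre/+ Arid1a f/f*.

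*Ccne1* and *Cdkn2b*, the 2 genes that passed the test, are also among those with a promoter sequence in the RefSeq table used here, which holds windows for 6 of the 10 members and none for *Ccnd1*, *Ccnd2*, *Ccne2* or *Cdkn1c*. The stretches below are shown because these genes carry the changes described next. They run 5′ to 3′ on the minus strand of GRCm38.p6, end at the last base before the gene model, and lie at chr7:38107535-38107740 for *Ccne1* and chr4:89311040-89311282 for *Cdkn2b*. Capitals mark GC boxes (GGGCGG on either strand) and the cyclic AMP response element (TGACGTCA).

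Ccne1: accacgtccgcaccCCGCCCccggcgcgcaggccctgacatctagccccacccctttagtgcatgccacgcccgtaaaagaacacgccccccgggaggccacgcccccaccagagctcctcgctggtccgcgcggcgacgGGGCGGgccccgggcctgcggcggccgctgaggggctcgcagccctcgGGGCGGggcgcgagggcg

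Cdkn2b: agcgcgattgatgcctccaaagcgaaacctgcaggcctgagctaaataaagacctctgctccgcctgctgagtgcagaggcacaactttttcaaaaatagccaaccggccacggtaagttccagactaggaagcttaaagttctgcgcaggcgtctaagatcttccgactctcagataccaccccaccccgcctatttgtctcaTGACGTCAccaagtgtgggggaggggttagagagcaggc

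The full windows reach 250 bases upstream of the RefSeq start. That of *Ccne1* held 4 GC boxes, of which 3 are complete in the printed stretch, and had a G and C content of 76.0%, against a median of 52.4% over all 32851 windows. That of *Cdkn2b* held no GC box, 1 response element beginning 46 bases upstream of the start and a G and C content of 53.6%. Of all windows, 32.7% held a GC box and 1.55% the response element. The E2F words TTTCCCGC, TTTCGCGC, TTTGCCGC and TTTGGCGC, also sought on both strands, were in 1.86% of all windows, in neither of these windows, and once in the upstream start of *Cdkn2a*. The words were picked after the expression values were known, may overlap other motifs, and their matches are given only as a description.

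*Ccne1* encodes cyclin E1, the activating partner of Cdk2 at the end of G1. The gene (ENSMUSG00000002068) lies on chromosome 7, positions 38097984 to 38107534 of GRCm38. Control uteri had 6.53, 8.24, 10.1, 8.05 and 6.46 CPM and mutant uteri 16.6, 15.8, 16.1, 11.9 and 12.9 CPM. All 5 mutant values exceeded all 5 control values, a separation seen in either direction in 10.7% of all tested genes. The means were 7.88 ± 1.51 CPM (SD, n = 5) and 14.7 ± 2.09 CPM (SD, n = 5), a log2 fold change of 0.89 (SE 0.16, adjusted p = 0.00682, edgeR). The two-sided exact permutation p was 0.00794, the smallest that 5 uteri against 5 can give. The call was kept whichever uterus was left out, with log2 fold changes of 0.82 to 0.99, and also without mutant replicates 1 and 5 together (0.89, adjusted p = 0.0106).

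*Ccne2* encodes cyclin E2, which shares the Cdk2 partner. It (ENSMUSG00000028212, chromosome 4, 11191351 to 11204779) stood at 14.98, 16.1, 25.3, 22.2 and 23.6 CPM in controls and at 21.2, 33.0, 35.7, 22.5 and 15.1 CPM in mutant uteri. Replicates 2 and 3 were above every control and the others lay within the control range. Its log2 fold change was 0.32 (95% interval -0.20 to 0.83, adjusted p = 0.439 from edgeR), where the interval, like those below, is not adjusted for the number of genes. Per kb of exon, *Ccne1* made up 34.0 ± 5.10% (SD, n = 5) of the 2 E cyclins in controls and 44.1 ± 7.23% (SD, n = 5) in mutant uteri. Its share was largest in mutant replicates 1 and 5, at 50.6% and 53%, while the other 3 uteri of the genotype, at 37.1% to 41.0%, overlapped the controls at 26.4% to 40.2%.

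**Figure D2:**
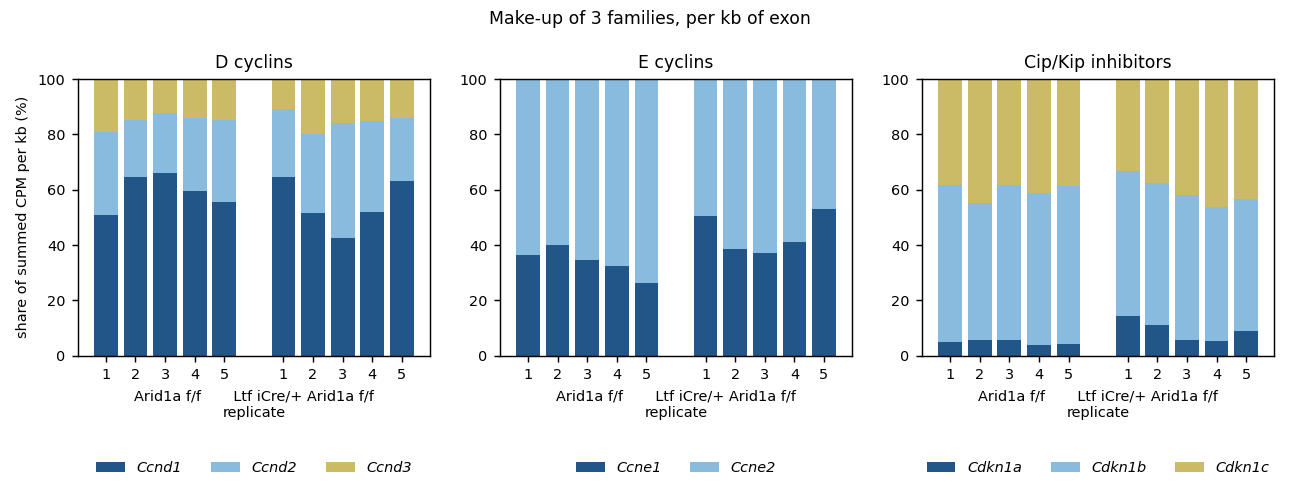
Share of each gene in the summed level of its family (vertical axis, percent of CPM per kb of exon) in each of the 10 uteri, numbered by replicate within genotype. The *Ccne1* share ran from 26.4% to 40.2% in controls and reached 53% in *Ltf iCre/+ Arid1a f/f*. The share of *Cdkn1a* ran from 3.98% to 5.59% in controls and reached 14.4%.

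Among the member cyclins, the D cyclins had higher mean levels in controls than the E cyclins. *Ccnd1* encodes cyclin D1, the D cyclin that growth factors typically induce, and lies on chromosome 7 from 144929931 to 144939925 (ENSMUSG00000070348). It stood at 108, 201, 242, 156 and 127 CPM in controls and at 342, 155, 118, 149 and 137 CPM in mutant uteri. Replicate 1 alone was above every control, and the other 4 were inside the control range. Over all uteri the log2 fold change was 0.11 (95% interval -0.55 to 0.78, adjusted p = 0.862 from edgeR) and became -0.02 when control replicate 1 was left out and -0.26 when mutant replicate 1 was, so no direction can be given.

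*Ccnd2* encodes cyclin D2 (ENSMUSG00000000184, chromosome 6, 127125162 to 127152193). Controls had 127, 129.7, 159.5, 139 and 136 CPM, and mutant uteri had 259.7, 171, 230.3, 191 and 99.6 CPM. Replicates 1 to 4 lay above every control and replicate 5 below every control. The log2 fold change was 0.46 (SE 0.20, unadjusted p = 0.0443, adjusted p = 0.178 from edgeR, two-sided exact permutation p = 0.151). Without mutant replicate 5 it was 0.63 (adjusted p = 0.0127 from edgeR), which passed the threshold. It also passed without replicates 1 and 5 together (0.52, adjusted p = 0.0151).

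*Ccnd3* encodes cyclin D3, a cyclin known from the decidua (ENSMUSG00000034165, chromosome 17, 47505051 to 47599691). It stood at 62.4 to 85.5 CPM in controls and at 108, 112, 82.8, 80.6 and 57.1 CPM in mutant uteri. Replicates 1 and 2 exceeded every control and replicate 5 was the lowest of all 10 uteri. Its log2 fold change was 0.23 (95% interval -0.14 to 0.60, adjusted p = 0.444 from edgeR). Summed per kb, the 3 D cyclins had 58.7 ± 13.5 CPM per kb (SD, n = 5) in controls and 68.6 ± 25.5 CPM per kb (SD, n = 5) in mutant uteri, and *Ccnd1* was the largest part in every uterus, at 42.5% to 65.9%. In edgeR's test 0 of the 3 D cyclins passed the adjusted threshold, 1 had an unadjusted p under 0.05, and DESeq2 also called 0.

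*Cdkn1a* encodes p21, a Cip/Kip inhibitor best known as a target of p53. It (ENSMUSG00000023067, chromosome 17, 29090976 to 29100727) stood at 9.89, 11.99, 11.2, 8.14 and 9.42 CPM in controls and at 29.7, 21.1, 11.6, 10.5 and 21.3 CPM in mutant uteri. Replicates 1, 2 and 5 were above every control, while replicates 3 and 4 lay within the control range. The log2 fold change was 0.89 (SE 0.26, adjusted p = 0.0538 from edgeR, two-sided exact permutation p = 0.0397). DESeq2 called it (adjusted p = 0.0107), as did edgeR without mutant replicate 3 (adjusted p = 0.0308) or replicate 4 (adjusted p = 0.0266). Without replicates 1 and 5 together the log2 fold change was 0.50 (adjusted p = 0.189).

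*Cdkn1b* encodes p27, which holds cyclin E-Cdk2 inactive in resting cells, and was the most abundant inhibitor (ENSMUSG00000003031, chromosome 6, 134920401 to 134925513). It had 143.5, 138.4, 144, 144 and 169 CPM in controls and 137.7, 125, 134, 118 and 148 CPM in mutant uteri. Values of 4 mutant uteri were lower than those of all controls, and replicate 5 lay within the control range. The difference was small, with a log2 fold change of -0.16 (SE 0.08, adjusted p = 0.264 from edgeR, two-sided exact permutation p = 0.0635). With each uterus left out in turn it stayed between -0.20 and -0.11.

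*Cdkn1c* encodes p57 and is an imprinted gene expressed from the maternal allele (ENSMUSG00000037664, chromosome 7, 143458339 to 143461050). It stood at 43.5 to 55.8 CPM in controls and at 39.4, 40.7, 47.8, 51.1 and 60.4 CPM in mutant uteri. The genotypes overlapped on both sides, with replicates 1 and 2 below and replicate 5 above every control. Over the genotypes the log2 fold change was -0.02 (95% interval -0.30 to 0.25, adjusted p = 0.932 from edgeR). Of 7 other genes of its imprinted domain, 3 were called higher, where 5.19% of all tested genes were. These were the potassium channel gene *Kcnq1* (log2 fold change 0.84, adjusted p = 0.0117 from edgeR), the transporter gene *Slc22a18* (0.80, adjusted p = 0.0184) and the transcription factor gene *Ascl2* (2.58, adjusted p = 0.0289). *Ascl2* had 7 to 25 counts per control uterus and 132, 17, 26, 39 and 158 counts in mutant replicates 1 to 5. *Kcnq1ot1*, the antisense RNA that lies within *Kcnq1*, had a log2 fold change of 0.09 (adjusted p = 0.840 from edgeR). It shares 121 exonic bases with *Kcnq1* on the opposite strand, and counts there depend on the strand setting, which is not stated. Of 10 fits with 1 uterus omitted, *Kcnq1* was called in 10, *Slc22a18* in 8 and *Ascl2* in 5, and *Ascl2* no longer without replicates 1 and 5 (adjusted p = 0.137).

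Summed per kb, the Cip/Kip inhibitors had 59.2 ± 3.92 CPM per kb (SD, n = 5) in controls and 57.9 ± 5.99 CPM per kb (SD, n = 5) in mutant uteri. The *Cdkn1a* share of this sum was 4.83 ± 0.772% (SD, n = 5) in controls and 9.13 ± 3.75% (SD, n = 5) in mutant uteri, so that *Cdkn1b* and *Cdkn1c* remained the bulk of the family RNA in every uterus. In edgeR's test 0 of the 3 passed the adjusted threshold, 1 had an unadjusted p under 0.05, and DESeq2 called 1.

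*Cdkn2b* encodes p15, an INK4 inhibitor known as a target of TGF-beta. It (ENSMUSG00000073802, chromosome 4, 89306299 to 89311039) stood at 0.69, 0.54, 0.47, 0.61 and 0.49 CPM in controls and at 4.41, 0.68, 0.67, 1.34 and 4.62 CPM in mutant uteri. Replicates 1 and 5 were several times above every control and replicate 4 about 2 times, whereas replicates 2 and 3 lay within the control range. The means were 0.560 ± 0.0892 CPM (SD, n = 5) and 2.34 ± 2.00 CPM (SD, n = 5), with a log2 fold change of 2.06 (SE 0.56, adjusted p = 0.0397 from edgeR, two-sided exact permutation p = 0.0238). These values rest on 30 to 49 counts per control uterus and 40 to 319 counts per mutant uterus.

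The *Cdkn2b* call depended on which uteri were included. Leaving out any control, replicates 1 to 5 in turn, gave adjusted p of 0.0664, 0.0921, 0.0946, 0.0814 and 0.0879 from edgeR, with log2 fold changes of 2.00 to 2.14. It was also lost without mutant replicate 1 (1.70, adjusted p = 0.0821) or replicate 5 (1.66, adjusted p = 0.0714), and without both the log2 fold change was 0.68 (adjusted p = 0.194). DESeq2 called it (adjusted p = 0.00150).

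*Cdkn2a* (ENSMUSG00000044303, chromosome 4, 89274471 to 89294653) is the neighbour of *Cdkn2b* and encodes both p16 and the p53 regulator ARF from different promoters, which gene counts do not separate. It had 0.14, 0.47, 0.14, 0.21 and 0.17 CPM in controls and 2.20, 0.56, 0.47, 0.45 and 0.09 CPM in mutant uteri. Replicate 1 was far above the rest, replicate 5 was the lowest of all 10 uteri, and the genotypes overlapped. The log2 fold change was 1.71 (95% interval 0.19 to 3.23, adjusted p = 0.144 from edgeR, two-sided exact permutation p = 0.151), and it was 0.77 without mutant replicate 1. It had 6 to 140 counts per uterus and the largest SE of the members, at 0.70.

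**Figure D3:**
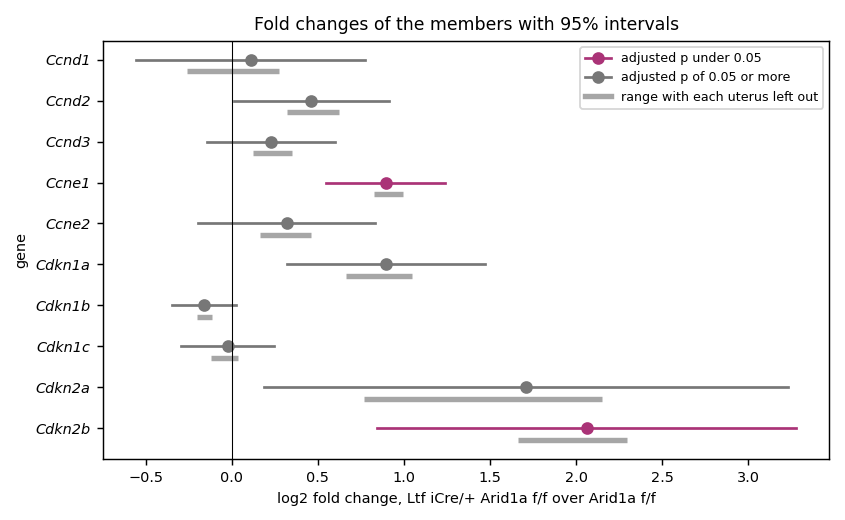
Log2 fold change of each member (*Ltf iCre/+ Arid1a f/f* over *Arid1a f/f*, horizontal axis) with its unadjusted 95% interval from edgeR, and below it the range of the fold change when each of the 10 uteri was left out. *Ccne1* and *Cdkn2b* passed an adjusted p of 0.05, and the *Ccnd1* and *Cdkn1c* ranges cross 0.

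The members spanned a wide range of levels, which were compared between genes in CPM per kb of exon. In controls *Ccnd1* (35.4 ± 11.6, SD, n = 5) and *Cdkn1b* (32.5 ± 2.69) led and overlapped, followed by *Cdkn1c* (23.9 ± 2.53), *Ccnd2* (14.7 ± 1.37), *Ccnd3* (8.58 ± 1.14) and *Ccne2* (5.84 ± 1.32), all in CPM per kb. *Ccne1* (2.96 ± 0.566) and *Cdkn1a* (2.85 ± 0.427) came next, and *Cdkn2b* (0.403 ± 0.0641) and *Cdkn2a* (0.195 ± 0.120) were lowest. The values overlapped between *Ccnd1* and *Cdkn1b*, *Ccnd3* and *Ccne2*, *Ccne1* and *Cdkn1a*, and *Cdkn2b* and *Cdkn2a*, and did not overlap between the other neighbours in this order. *Ccnd1* was above 94.9% of the tested genes with a known length, *Ccne1* above 56.6%, *Cdkn2b* above 35.5% and *Cdkn2a* above 28.1%.

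The SD among mutant uteri was larger than that among controls in 9 of the 10 members, *Cdkn1b* being the exception. Replicate 1 was the highest uterus for 5 members, namely *Ccnd1*, *Ccnd2*, *Ccne1*, *Cdkn1a* and *Cdkn2a*, and the lowest for *Cdkn1c*. Replicate 5 was highest for *Cdkn1c* and *Cdkn2b* and lowest for *Ccnd2*, *Ccnd3* and *Cdkn2a*. Replicate 1 was also above every control for *Ccnd3* and *Cdkn2b*, within the control range for *Ccne2* and below every control for *Cdkn1b*. Replicate 5 was above every control for *Ccne1* and *Cdkn1a* as well.

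To place the 2 called members among other genes, the 14591 genes that averaged 100 or more counts were ranked by how closely their log2 CPM relative to the control mean followed each member over the 10 uteri. For *Ccne1* the nearest were *Fignl1* (mean absolute log2 difference 0.14), *Hells* (0.16) and *Srebf2* (0.16). For *Cdkn2b* they were *Map3k9* (0.15), *Mgam* (0.19) and *Muc1* (0.19). *Muc1*, the gene of an epithelial surface mucin, rose from a control mean of 28.2 ± 3.13 CPM (SD, n = 5) to 114 ± 90.8 CPM (SD, n = 5) in mutant uteri (adjusted p = 0.0239, edgeR).

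Partners and targets of the members were described by 8 lists with 69 genes, of which 12 were called higher and 3 lower, where 9.7% of all tested genes were called. Their median log2 fold change was 0.21, against 0.03 over all tested genes. These counts fell to 4 genes in all without control replicate 2, 6 without control replicate 4, 7 without control replicate 5, 8 without control replicate 1, 9 without control replicate 3, and 8 when mutant replicate 1 was omitted. The share of all tested genes called in these 6 fits was also lower, from 4.79% without control replicate 2 to 7.76% without mutant replicate 1. When single uteri were omitted in turn (10 fits), *E2f2*, *Pcna*, *Mycn* and *Areg* were called in all 10, *Cdc6* in 9, *Rbl1* in 8 and *Cdc25a* in 7. *Tfdp1* and *Cdt1* were called in 5 of them, *Skp1a* and *Klf9* in 4, *Cdk4* in 3, *Tfdp2* in 2, and *Mcm2* and *Aen* in 1.

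Among the 10 G1 CDKs and their activators, 2 rose. *Cdk4*, the partner of D cyclins, had 223, 257, 251, 264 and 255 CPM in controls and 342, 311, 312, 296 and 291 CPM in mutant uteri, without overlap between the genotypes (log2 fold change 0.31, adjusted p = 0.0320 from edgeR). *Cdk4* shares 641 exonic bases with *Tspan31* on the opposite strand. *Cdc25a*, whose phosphatase activates Cdk2, rose by 0.45 on the log2 scale (adjusted p = 0.0242). *Cdk2*, the partner of E cyclins, did not pass (0.33, adjusted p = 0.0520), although its values of 46.0 to 50.8 CPM in controls and 52.5 to 74.3 CPM in mutant uteri did not overlap. *Cdk6* had a log2 fold change of 0.44 (adjusted p = 0.111).

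Of the 3 pocket protein genes, which encode the retinoblastoma protein and its relatives, *Rbl1* rose (log2 fold change 0.46, adjusted p = 0.0219 from edgeR). It encodes p107 and is itself an E2F target. *Rb1* (-0.16, adjusted p = 0.376) and *Rbl2* (-0.31, adjusted p = 0.0780) had negative values that did not pass in edgeR, while DESeq2 called *Rbl2* (adjusted p = 0.0385). On the opposite strand, *Rbl2* shares 693 exonic bases with *Aktip* and 892 with *Gm45464*, and *Rb1* shares 488 with *Rcbtb2* and 408 with *Lpar6*. Of the 10 E2F and DP genes, *E2f2* (0.81, adjusted p = 0.00161 from edgeR) and the E2F dimer partner *Tfdp1* (0.43, adjusted p = 0.0358) rose and the other partner, *Tfdp2*, fell (-0.36, adjusted p = 0.0412). *E2f2* went from 8.70 to 10.3 CPM in controls to 14.9 to 17.4 CPM in mutant uteri. *E2f1* had a log2 fold change of 0.49 (adjusted p = 0.130).

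Cyclin E and p27 are degraded through SCF ubiquitin ligases, and of 8 genes listed here for such turnover the adaptor *Skp1a* rose (log2 fold change 0.40, adjusted p = 0.0314 from edgeR). *Skp2*, which recognizes p27, had 0.27 (adjusted p = 0.264). The 2 other INK4 genes, *Cdkn2c* (-0.42, adjusted p = 0.226) and *Cdkn2d* (-0.03, adjusted p = 0.945), did not pass the test, with unadjusted p of 0.0653 and 0.876, and DESeq2 called 0 of them.

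Of 12 readouts of S phase entry, 4 rose and no member of the list fell. *Pcna*, the sliding clamp of DNA polymerases, had 68.8, 56.0, 65.1, 81.4 and 70.7 CPM in controls and 143, 141, 129, 112 and 103 CPM in mutant uteri (log2 fold change 0.88, adjusted p = 0.00213 from edgeR). The genotypes did not overlap. The replication licensing genes *Cdc6* (1.07, adjusted p = 0.0221), *Mcm2* (0.68, adjusted p = 0.0487) and *Cdt1* (0.61, adjusted p = 0.0292) also rose.

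The proliferation marker *Mki67* gave a different picture. It had 251, 184, 290, 229.7 and 174 CPM in controls and 357, 372, 152, 138 and 188 CPM in mutant uteri (log2 fold change 0.10, adjusted p = 0.874 from edgeR). Replicates 1 and 2 were above every control, replicates 3 and 4 below every control, and replicate 5 within the control range. *Ccna2*, the cyclin of S and G2 phase, was likewise above every control in replicates 1 and 2, at 160 and 169 CPM against 70.3 to 103 CPM in controls, and at 68.7 to 82.7 CPM in the other 3 (0.32, adjusted p = 0.481). *Ccne1*, in contrast, was above every control in all 5.

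Of p53 and 11 of its targets, only *Aen*, a nuclease gene, rose (log2 fold change 0.53, adjusted p = 0.0443 from edgeR). The log2 fold changes of this list ran from -0.55 to 0.53, with 6 of 12 above 0. Of 12 genes linked to growth control in the uterus, the transcription factor gene *Mycn* rose from 1.26 to 1.94 CPM in controls to 43.8, 8.20, 7.91, 10.6 and 75.8 CPM in mutant uteri (4.16, adjusted p = 0.00453). Its values were highest in replicates 1 and 5, as were those of *Cdkn2b*. *Areg*, an epithelial growth factor gene under progesterone control, fell (-4.49, adjusted p = 0.00131), as did the progesterone receptor partner *Klf9* (-0.49, adjusted p = 0.0361).

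**Figure D4:**
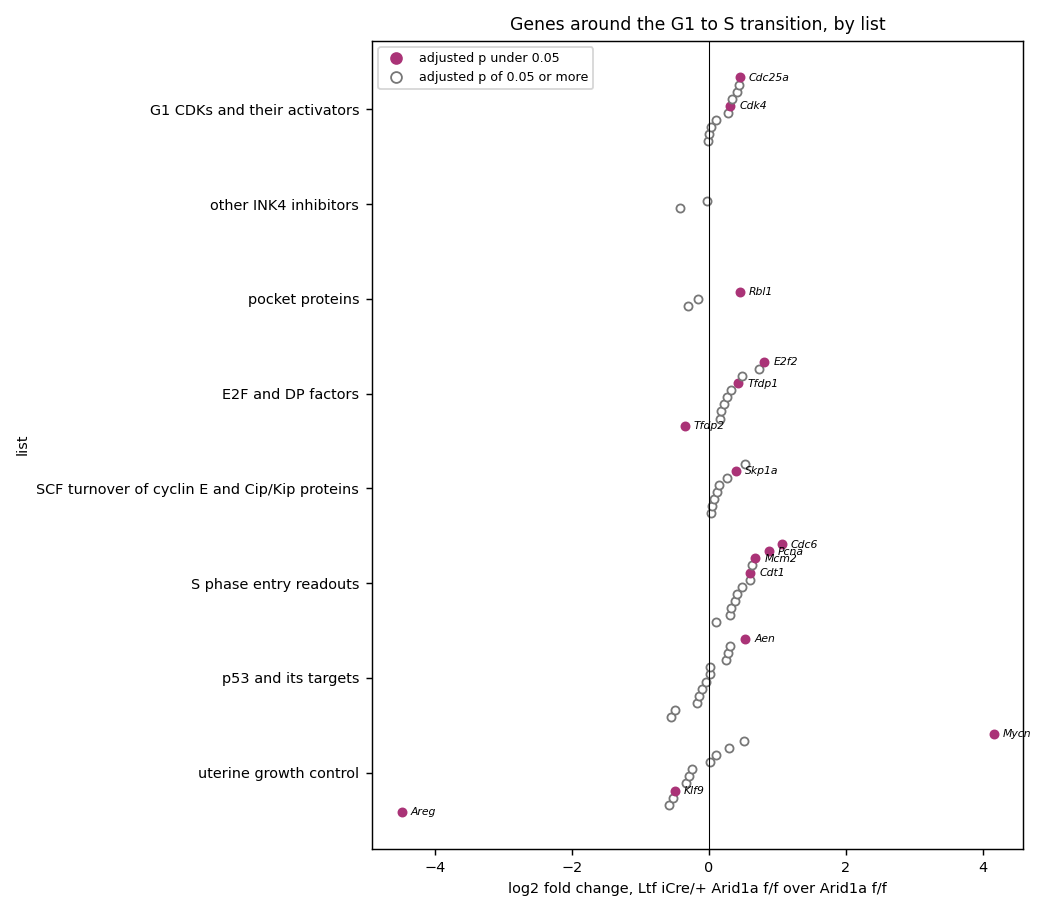
Log2 fold changes (*Ltf iCre/+ Arid1a f/f* over *Arid1a f/f*, horizontal axis) of 69 genes in 8 lists around the G1 to S transition, each point being 1 gene and the vertical spread within a list showing only the order of values. Filled points had an adjusted p under 0.05 and are named. Among the S phase entry readouts all 12 values lie above 0, as do 13252 of all 25146 tested genes. *Mycn* (4.16) and *Areg* (-4.49) lie farthest from 0.

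Markers of several cell types moved with genotype. Of 8 epithelial markers 5 rose (*Cdh1*, *Epcam*, *Krt8*, *Krt19* and *Cldn7*), and their summed level was 821 to 1095 CPM in controls and 1151 to 2163 CPM in mutant uteri, highest in replicates 1 and 5. *Cldn3*, of the same list, had a log2 fold change of -0.30 (adjusted p = 0.558 from edgeR) and was below every control in those replicates, at 78.7 and 59.2 CPM against 121 to 186 CPM. Of 6 endothelial markers 5 fell, with sums of 723 to 990 CPM and 362 to 494 CPM. Of 7 gland markers *Foxa2* fell, with sums of 78.3 to 125 CPM and 13.3 to 51.4 CPM, and *Prss28* and *Prss29* had 43 counts each in control replicate 1 and 0 to 7 counts in every other uterus. *Lif*, of the same list, had a log2 fold change of -0.58 (adjusted p = 0.469 from edgeR). It was below every control in 4 mutant uteri and above every control in replicate 5, at 17.4 CPM against 6.23 to 12.96 CPM. Of 8 stromal markers *Dcn* fell, and 0 of the 8 myometrial, 8 macrophage and 5 red blood cell markers were called by edgeR, with 4 at an unadjusted p under 0.05 and 2 called by DESeq2. The summed macrophage markers reached 747 CPM in mutant replicate 5, against 288 to 389 CPM in the other mutant uteri and 190 to 348 CPM in controls. The myometrial sum was 8274, 9743, 4940, 5221 and 3678 CPM in mutant replicates 1 to 5 and 6920 to 12072 CPM in controls. Of 8 T and NK cell markers the T cell genes *Cd3d*, *Cd3e* and *Cd3g* rose. *Trac*, also a T cell gene, did not pass. It had 1.63 to 1.93 CPM in controls and 3.01, 1.77, 1.99, 3.76 and 5.11 CPM in mutant replicates 1 to 5. The NK cell genes did not pass, with log2 fold changes of -0.89 for *Gzma* (adjusted p = 0.249 from edgeR), which was below every control in 4 mutant uteri, -0.23 for *Ncr1* and -0.01 for *Klrb1c*. The 7 neutrophil markers, of which *Ly6g* and *Mmp8* rose, summed to 5.94 to 23.1 CPM in controls and to 15.7, 12.3, 12.98, 23.1 and 873 CPM in mutant replicates 1 to 5. Both called genes had few counts in most uteri. *Ly6g* had 4 to 14 counts per control uterus and 109, 22, 10, 17 and 368 in mutant replicates 1 to 5. *Mmp8* had 1 to 6 counts per control uterus and 7, 8, 10, 17 and 1191 in mutant replicates 1 to 5. The part of these cell types in the values of *Ccne1*, *Cdkn2b*, *Cdkn1a*, *Mki67* and the other genes was not tested.

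*Arid1a* itself had 192 to 251 CPM in controls and 165 to 208 CPM in mutant uteri (log2 fold change -0.20, adjusted p = 0.201 from edgeR), and *Ltf* 2.22 to 11.7 CPM and 23.6 to 2831 CPM (7.23, adjusted p = 0.00920). The total counts were 59296537 to 72702411 per uterus, at which 3 counts correspond to about 0.0418 to 0.0507 CPM. Several members share exonic bases with a gene on the opposite strand, namely *Ccnd1* with *LTO1* (1100 bases), *Ccnd2* with *Gm43126* (372), *Ccnd3* with *Bysl* (361), *Ccne2* with *Ints8* (609), *Cdkn1a* with *AC167363.2* (273) and *Cdkn1c* with *Gm44732* (625). Counts there depend on the strand setting, which is not given in the sources used here. No such overlap was found for *Ccne1*, *Cdkn1b*, *Cdkn2a* or *Cdkn2b*.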

How the data were processed

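RNA of whole uterine tissue, from a part of each uterus, was sequenced as 50 bp, paired end mRNA libraries. Per the labels and the study's methods, the authors trimmed reads with cutadapt 1.18 and Trim Galore 0.6.4, aligned them to GRCm38 with STAR 2.7.3a and deposited whole-number counts per gene from its GeneCounts mode, which drops reads that overlap more than 1 gene. The annotation release and strand setting are not given in the sources used here. Each library was taken as 1 mouse, since the study's methods give n as the number of animals.

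Genes that averaged 1 or more counts per uterus were tested with edgeR 4.0.16 in R 4.3.3 (TMM, genotype only, quasi-likelihood test, Benjamini-Hochberg, threshold 0.05). Single genes also had an exact permutation test of log2 CPM (prior count 2). The study used DESeq2 on the same design, and DESeq2 1.42.0 was an alternative here, with other size factors and filters, the replicate number as a block, and the omission of uteri. The omission of replicates 1 and 5 together was added after the data had been seen. Procedures were tested on simulated data.

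Symbols, exon lengths and overlaps came from GENCODE's GRCm38 annotation, which held 45143 of 45706 identifiers, and promoters from RefSeq (GRCm38.p6). Levels between genes were compared per kb of merged exons. The members and lists were chosen with earlier results of these data known. Named genes were the members, called genes of the lists (at most 4 per list), *Cdk2*, *Cdk4*, *Cdk6*, *Rb1*, *Rbl1*, *Rbl2*, *E2f1*, *Skp2*, *Ccna2*, *Mki67*, *Arid1a*, *Ltf* and the 3 genes nearest in pattern to each called member. The imprinted domain, marker, other INK4, uterine growth control and overlapping genes named besides these were chosen after their values were seen. Figures were drawn with matplotlib 3.10.9.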

Additional observations from a re-analysis of the deposited data

Results flagged for a closer look

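In each of the 20 combinations of member and genotype, the gap between the most extreme uterus and its nearest neighbour was compared with the range of the 5 values by Dixon's test at the 95% level, which chance exceeds in about 1 of 20 groups. There were 4 such values. *Ccnd1* was at 342.4 CPM in *Ltf iCre/+ Arid1a f/f* replicate 1, where the next highest uterus of the genotype had 154.6 CPM. *Cdkn2a* was at 2.195 CPM in the same uterus, with 0.5577 CPM next. In controls, *Cdkn2a* was at 0.4739 CPM in replicate 2, with 0.213 CPM next, and *Cdkn1b* was at 169.4 CPM in replicate 5, with 144.4 CPM next. The *Cdkn2a* value in the control rests on 34 counts.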

How the results depend on the processing

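The count of 2 called members was 3 with DESeq2 and with edgeR's own filter, and 1 to 3 with each uterus left out. The 15 called genes of the 69 in the lists were 21 with DESeq2, 16 with edgeR's own filter, 14 with DESeq2 size factors and 4 to 16 with each uterus left out. Of all tested genes, 9.7% were called in the main fit, 16.3% with DESeq2, 13.3% with edgeR's own filter and 9.75% with DESeq2 size factors. With each uterus left out this share was 4.79% to 9.44%. *Ccne1* was called in every alternative run, with a log2 fold change of 0.82 to 0.99. *Cdkn2b* kept its direction throughout, with 0.68 to 2.30 and adjusted p from 0.00150 to 0.194. The log2 fold change of *Ccnd1* lay between -0.26 and 0.27 with each uterus left out and was -0.25 when *Ltf iCre/+ Arid1a f/f* replicates 1 and 5 were left out. That of *Cdkn1c* lay between -0.121 and 0.0364 with each uterus left out. Over all genes, 2438 calls became 4103 with DESeq2, 1704 with the replicate block and 1204 to 2381 with each uterus left out.

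The labels number the replicates without stating a pairing. The correlations of same-numbered deviations over 14591 genes ran from -0.16 to 0.22, and 1 of 5 *Ltf iCre/+ Arid1a f/f* uteri matched its own number best. These correlations cannot decide whether uteri were paired, and the study's methods state that littermates were compared where this was possible. With the replicate block, 1 member (*Ccne1*, adjusted p = 0.0168 from edgeR) and 8 genes of the lists were called, and *Cdkn2b* had a log2 fold change of 1.59 (adjusted p = 0.103). Of all tested genes, 6.78% were called in that fit. *Cdkn2a* had 6 to 140 and *Cdkn2b* 30 to 319 counts per uterus, fewer than the other members.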
